A study of Mus musculus with 18 samples.

Results

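H3K9me3, the histone mark of repressive heterochromatin, was examined at the *Gnas* imprinted cluster of mouse embryonic stem cells (mESCs), which was taken as the genes *Gnas* and *Nespas*, 2 of 35977 annotated genes. Their span on mm10 was chromosome 2, 174281237 to 174346744 (65508 bp), and peaks were read in this span with 50 kb on each side, a window of 165508 bp. In this window lay 15 of the 101845 stretches of the genome that a peak of each wild-type library covered together over at least 600 bp. All cells were the male mESC line E14TG2a, cultured in serum and LIF and, for the study, carrying an inducible heterochromatin reporter. The groups were wild-type (WT), UHRF1KO and DHX9KO, with 2 libraries each. *Uhrf1* KO cells were clones made with CRISPR-Cas9, and how the *Dhx9* KO line was made is not given in the sources used here. The peak lists carry no measure of *Uhrf1* or *Dhx9* expression, so the knockouts were not checked. Of the 18 samples of the study, the other 12 were not analysed here.

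*Gnas* encodes the stimulatory G protein alpha subunit and, from alternative first exons, other products that are expressed from one parental allele. Read along the chromosome, its promoters are those of *Nesp* (the neuroendocrine secretory protein NESP55, made from the maternal allele), of *Gnasxl* (the large XLas protein, made from the paternal allele), of the untranslated exon 1A (paternal allele) and of exon 1 (the G protein subunit itself, made from both alleles in most tissues). *Nespas* is a noncoding RNA transcribed from the paternal allele in the direction opposite to *Nesp*. The DNA between the *Nespas* and *Gnasxl* promoters carries methylation from the egg and is the principal imprinting control region of the cluster, and exon 1A is a second maternally methylated region. At such regions the methylated allele also carries H3K9me3. UHRF1 guides the DNA methyltransferase DNMT1 to newly replicated DNA, DHX9 is an RNA and DNA helicase, and ZFP57 is a zinc finger protein that binds the methylated hexamer TGCCGC and keeps imprints.

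The peak over the control region was the densest mark of the cluster. In WT it ran from 174289001 to 174301200 in replicate 1 and from 174289201 to 174301800 in replicate 2. The stretch shared by both, chr2:174289201-174301200 (12000 bp), held the start of *Nespas* at 174295436 and of *Gnasxl* at 174297859, exons of both genes, 52.7% GC and 14.2% bases masked as repeats. It will be called the *Nespas–Gnasxl* stretch. It was longer than 98.5% of all 101845 stretches, whose median was 2200 bp. Among the 2539 stretches of 10 kb or longer it ranked 45th by mean log2 fold of ChIP over background.

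The sequence of this stretch set it beside few others. It held 14 matches to TGCCGC, searched on both strands (TGCCGC or GCGGCA), and 401 CpG dinucleotides, or 33.4 per kb. Of the 1527 WT stretches at least as long, each read over its central 12000 bp, only 1 other held as many matches and 1 other as many CpG. The medians of these 1527 were 1 match and 144 CpG, and 73.3% held at least 1 match. In windows of 300 bases, 8 of the 40 windows of the *Nespas–Gnasxl* stretch held the hexamer (20.0%), compared with 3.72% of the 967972 windows of all WT stretches. The other 14 stretches of the window held 5 matches between them and 4.81 to 15.0 CpG per kb. A match is a description of the letters and does not show that a protein was bound. The 14 matches were not spread evenly. None lay in the part of the stretch within the *Nespas* gene, 5 lay between 0.461 and 0.676 kb upstream of the *Nespas* start, and 5 lay in the first exon of *Gnasxl*, 3.96 to 4.26 kb from it. The sequences below, from GRCm38.p6 (mm10) and written 5′ to 3′ with each match in capitals, show both groups of matches, and the 250 bases before the *Nespas* start and before the first exon 1A start for comparison.
Upstream group, chr2:174295818-174296117, + strand: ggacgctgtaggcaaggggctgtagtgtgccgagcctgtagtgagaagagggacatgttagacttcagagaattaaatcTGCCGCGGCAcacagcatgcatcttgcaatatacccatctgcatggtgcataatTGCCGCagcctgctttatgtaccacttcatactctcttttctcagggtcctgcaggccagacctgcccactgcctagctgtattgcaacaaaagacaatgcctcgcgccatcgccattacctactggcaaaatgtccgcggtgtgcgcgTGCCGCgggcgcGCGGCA
Coding exon of *Gnasxl*, chr2:174299381-174299680, + strand: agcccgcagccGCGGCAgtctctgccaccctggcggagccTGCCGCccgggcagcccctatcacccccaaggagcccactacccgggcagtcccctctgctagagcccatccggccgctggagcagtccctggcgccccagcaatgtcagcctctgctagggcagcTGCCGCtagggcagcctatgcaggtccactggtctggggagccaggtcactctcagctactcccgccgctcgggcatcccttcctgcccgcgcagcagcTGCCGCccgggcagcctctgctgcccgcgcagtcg
Before *Nespas*, chr2:174295437-174295686, - strand: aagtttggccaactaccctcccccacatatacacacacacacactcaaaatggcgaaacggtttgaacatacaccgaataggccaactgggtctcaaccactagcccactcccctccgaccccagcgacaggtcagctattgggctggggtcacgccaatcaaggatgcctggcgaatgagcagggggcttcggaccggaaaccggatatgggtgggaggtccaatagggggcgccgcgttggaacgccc
Before exon 1A, chr2:174327493-174327742, + strand: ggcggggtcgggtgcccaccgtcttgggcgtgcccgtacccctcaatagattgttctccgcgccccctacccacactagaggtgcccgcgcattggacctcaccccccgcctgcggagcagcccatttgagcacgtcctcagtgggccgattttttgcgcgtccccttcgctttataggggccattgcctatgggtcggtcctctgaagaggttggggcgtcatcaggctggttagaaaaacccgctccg
The upstream group held 5 matches, of which a pair overlapped, and 17 CpG. The exon held 4 matches and 21 CpG within these 300 bases. The 250 bases before *Nespas* (14 CpG), *Gnasxl* (6 CpG), *Nesp* (15 CpG), exon 1 (20 CpG) and exon 1A (20 CpG) held no match, while 8.68% of the 32851 promoters of RefSeq held one in the same 250 bases.

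**Figure D1:**
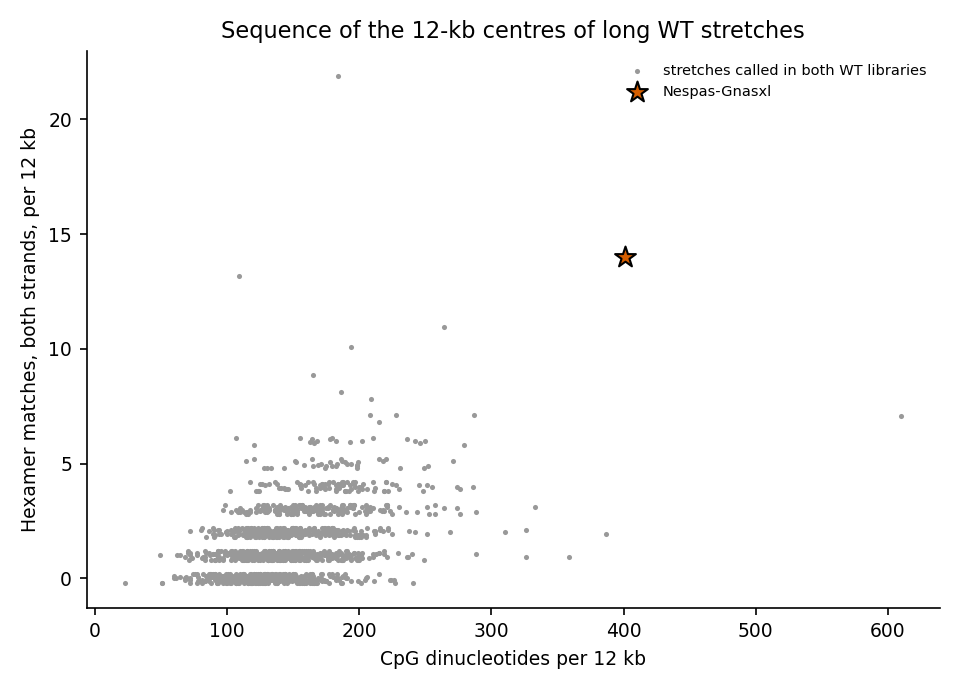
CpG dinucleotides (x axis) and matches to the hexamer on both strands (y axis, points moved slightly up or down so that they can be told apart) in the central 12000 bp of each of the 1527 WT stretches at least that long. The *Nespas–Gnasxl* stretch, with 401 CpG and 14 matches, stands apart from the bulk around the medians of 144 and 1.

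Before the comparisons, the lists themselves differed. The WT and *Dhx9* KO lists held 116156 to 125453 peaks over 399 to 416 Mb, and the UHRF1KO lists held 70195 and 93916 peaks over 203 and 342 Mb. Peaks with the same limits had the same background reads in the WT and *Dhx9* KO lists, but in only 3.49% and 2.24% of cases in the *Uhrf1* KO lists, which were called on other background reads. From these background reads, the ChIP depth relative to WT replicate 1 was estimated as 0.960 in WT replicate 2, 0.466 and 0.851 in *Uhrf1* KO, and 1.12 and 1.11 in *Dhx9* KO. The methods instead state that every library was subsampled to a like depth and set against WT input. The lists differ from that statement, so these depths are estimates only. The lists do not separate the parental alleles. A list holds no reads where no peak was called, so the absence of a peak is not a count of 0. With 2 libraries against 2, an exact permutation test of a single value cannot give a two-sided p below 0.33, and none was run. Whether replicate libraries came from separate cultures is stated by the study only as biological replicates, and tests below measure the spread between these libraries.

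In *Uhrf1* KO cells, neither library had a peak anywhere on the *Nespas–Gnasxl* stretch or within 5 kb of it. In WT the peak held 1336 ChIP reads against 300 background reads in replicate 1, and 1362 against 303 in replicate 2. These were 110 and 108 ChIP reads per kb against 24.6 and 24.0 background reads per kb, with log2 folds of 2.31 and 2.39. Both WT libraries were thus alike in limits, reads and fold, and both *Uhrf1* KO libraries had no peak called there. The study names this locus for its loss in these libraries, among imprinted loci that fell short of its statistical thresholds. The loss here is thus a description and not a test. Among all WT stretches, 29.3% had no peak at the centre in either *Uhrf1* KO library, and among the 128 stretches of 10 kb or longer with a mean log2 fold of at least 2, 6 did (4.69%).

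The lower estimated depth of the *Uhrf1* KO libraries was set beside this absence, and its part in it was not tested. The WT level scaled to the estimated depth was 51.7 reads per kb in replicate 1 and 94.5 in replicate 2. Called peaks of 10 to 16 kb in these lists had a median of 34.9 and 41.7 reads per kb, and the lowest had 16.8 and 19.9. No reads at the stretch itself are in these lists.

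The start sites of the cluster split by genotype in the same way. The 20 transcript models of *Gnas* and the one of *Nespas* fell into 7 groups of starts within 500 bp of each other. The starts of *Nespas*, of *Gnasxl* and of a pair of *Gnas* models at 174297150 to 174297350 lay under a peak in both WT and both *Dhx9* KO libraries, and in no *Uhrf1* KO library. The *Nesp* starts (174284306 to 174284324), the other models starting at 174285399 and the exon 1 starts (174329829 to 174330089) lay under no peak in any of the 6 libraries. The exon 1A starts (174327743 to 174327914), the other maternally methylated region of the cluster, had no peak in WT or *Uhrf1* KO, and a weak one in *Dhx9* KO replicate 1 alone, with 90 ChIP against 63 background reads and a log2 fold of 0.52. This peak also held the start of *Gm30189*, an antisense noncoding RNA gene. Thus of both maternally methylated regions, the one between *Nespas* and *Gnasxl* was marked in both WT libraries and exon 1A in neither.

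**Figure D2:**
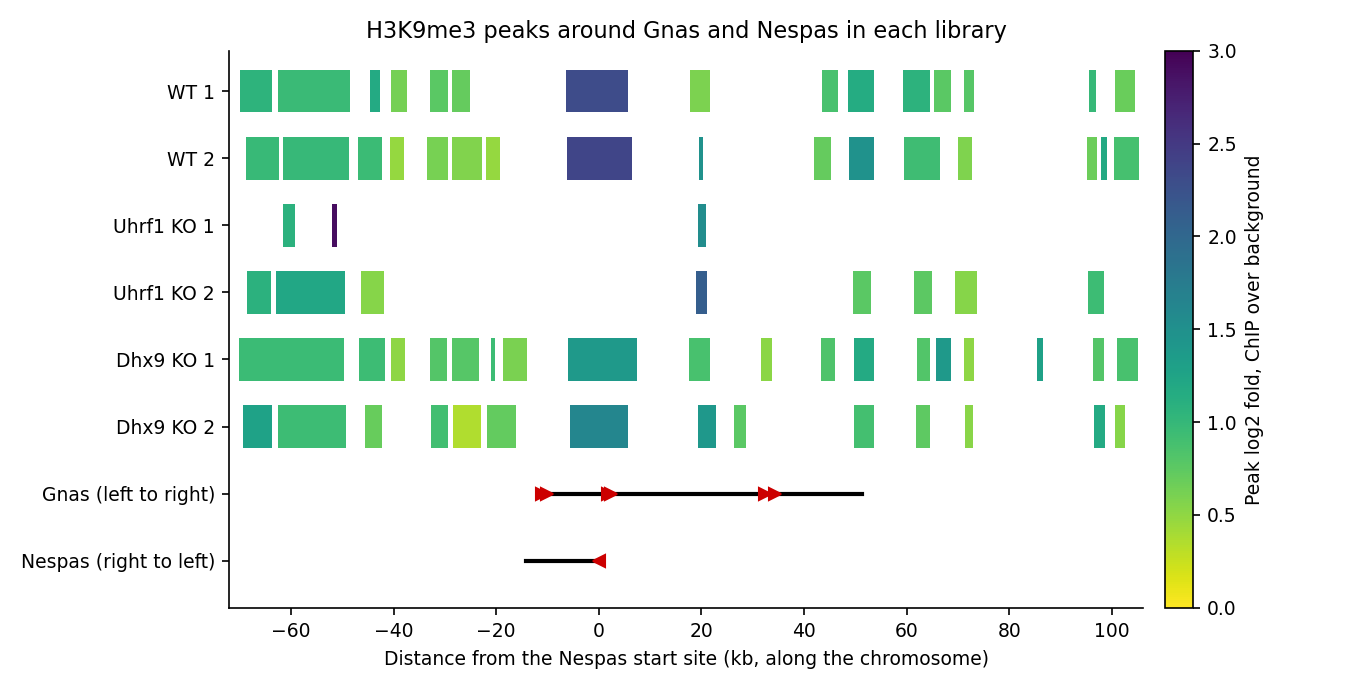
Peaks of the 6 libraries (rows) by distance from the *Nespas* start (x axis, kb), coloured by log2 fold of ChIP over background, above the spans of *Gnas* and *Nespas* with their starts (red arrowheads). The dark block over the start in WT, with log2 folds of 2.31 and 2.39, is paler in *Dhx9* KO (1.39 and 1.62) and missing in both *Uhrf1* KO libraries.

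Outside the *Nespas–Gnasxl* stretch, the window kept few of its peaks in *Uhrf1* KO replicate 1 and more in replicate 2. Peaks covered 63308 and 69908 bp of it in WT (66608 ± 4667, SD, n = 2), 5000 and 34964 bp in *Uhrf1* KO (19982 ± 21188, SD, n = 2), and 73108 and 59708 bp in *Dhx9* KO (66408 ± 9475, SD, n = 2). Both *Uhrf1* KO libraries were below WT but far apart from each other, and the shallower of them had the shorter length. Of the 15 WT stretches, 6 had no peak at the centre in either *Uhrf1* KO library, compared with the 29.3% of all stretches. Replicate 1 kept 2 of the 15 and replicate 2 kept 9, compared with 40.6% and 68.9% of all stretches. The 5 others without a peak in both were weak in WT, with log2 folds of 0.47 to 0.94. One of them, 174266801 to 174270400, held the microRNA genes *Mir296* and *Mir298*, and another lay in a *Gnas* intron (174339001 to 174340600).

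Peaks kept in *Uhrf1* KO lay within the cluster as well. In a *Gnas* intron at 174315001 to 174315800, all 6 libraries had a peak, with log2 folds of 0.59 and 1.47 in WT, 1.54 and 2.12 in *Uhrf1* KO and 0.88 and 1.40 in *Dhx9* KO. Here the WT libraries were the most unlike, with a peak of 3800 bp in replicate 1 and of 800 bp in replicate 2, and the *Uhrf1* KO folds, which rest on other background reads, were the highest. The stretch over the 3′ end of *Gnas* (174344201 to 174349000) had log2 folds of 1.16 and 1.47 in WT, no peak in *Uhrf1* KO replicate 1, 0.77 in replicate 2, and 1.18 and 0.90 in *Dhx9* KO. Upstream of the cluster, the 13000-bp stretch from 174233801 to 174246800 had 670 and 622 ChIP reads in WT, with log2 folds of 0.97 and 0.99. It was called over nearly its whole length in *Uhrf1* KO replicate 2 (1.22) and only in shorter pieces in replicate 1. No region of the window was called over at least 80% of its length in all 4 WT and *Uhrf1* KO libraries, so no test on reads was made there in the main analysis. Without this minimum, 2 regions could be tested with edgeR. The upstream region changed by -0.18 on the log2 scale (SE 0.22, adjusted p = 0.831, edgeR) and the intronic one by 0.16 (SE 0.38, adjusted p = 0.927, edgeR). None of the 40511 regions tested in this way passed, so the lack of a call is not particular to these 2.

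**Figure D3:**
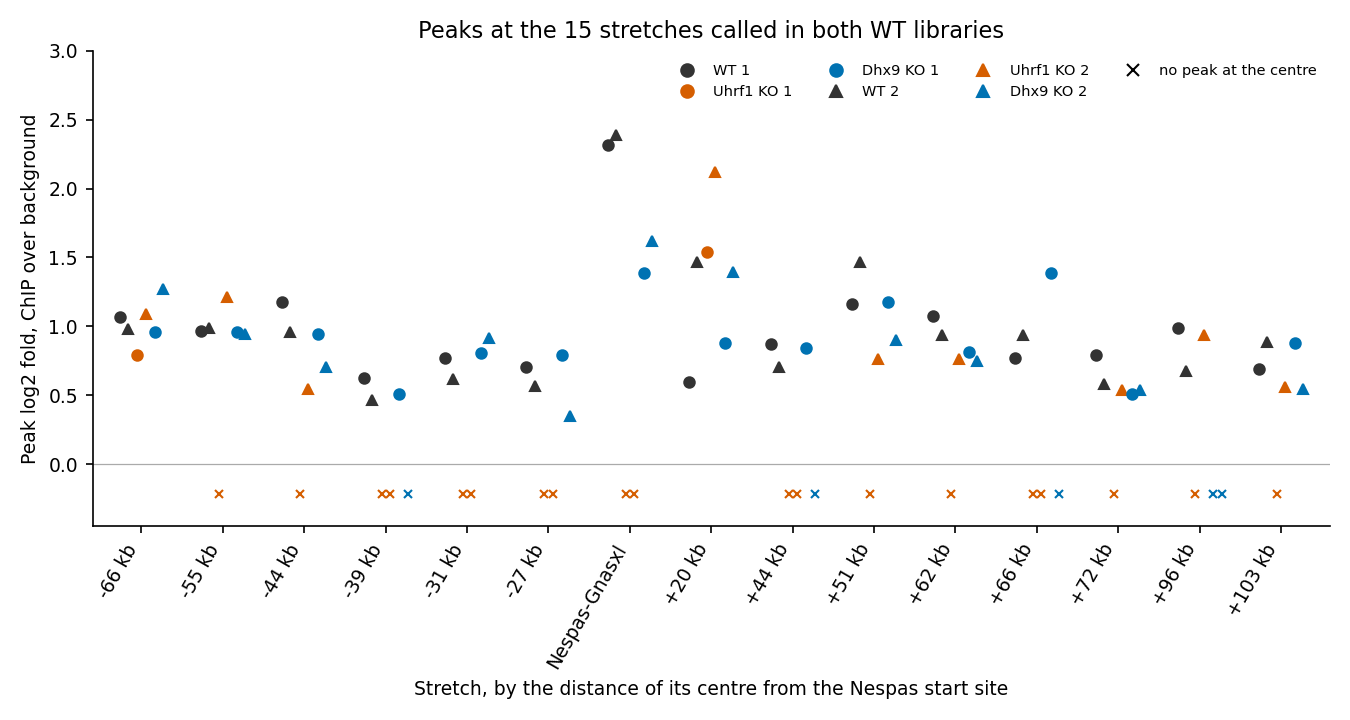
Log2 fold of ChIP over background (y axis) of the peak at the centre of each of the 15 WT stretches, ordered along the chromosome by distance from the *Nespas* start (x axis), with replicate 1 as circles, replicate 2 as triangles and crosses below 0 where a library had no peak. The *Nespas–Gnasxl* stretch has the highest WT folds of the window, and *Uhrf1* KO folds of 1.54 and 2.12 appear at the intronic stretch.

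Over 500 kb on each side of the cluster, the *Nespas–Gnasxl* peak held the most ChIP reads of all 103 and 113 WT peaks. It ranked 3rd and 2nd by log2 fold, behind peaks of 200 to 600 bp with 34 to 79 reads. Peaks covered 536600 and 544400 bp of this wider region in WT, 82400 and 398600 bp in *Uhrf1* KO, and 496000 and 448600 bp in *Dhx9* KO. The *Uhrf1* KO libraries were below WT there too, and *Dhx9* KO was below WT by less.

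In *Dhx9* KO cells the *Nespas–Gnasxl* peak was present in both libraries but held fewer reads. Replicate 1 had 834 ChIP reads against 319 background reads over 13400 bp (174289401 to 174302800), and replicate 2 had 852 against 279 over 11400 bp (174289801 to 174301200). These were 62.2 and 74.7 ChIP reads per kb, below both WT libraries (110 and 108). The background, 23.8 and 24.5 reads per kb, was the same set of reads as in WT and is no separate measurement. The log2 folds were 1.39 and 1.62, both below 2.31 and 2.39. Of the 62927 stretches with a peak in all 4 libraries, 38.3% also had both *Dhx9* KO folds below both WT folds, and of those with a mean WT fold of at least 1.5, 58.4% did. The difference in mean log2 fold was -0.85 at *Nespas–Gnasxl*, with a median of -0.17 over the 62927 stretches and of -0.40 over the stronger ones.

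The reads of this region were tested with all others that could be compared. Over the region 174289001 to 174302800 they fell by 0.67 on the log2 scale (SE 0.12), to 0.630 of WT. The adjusted p was 0.0211 (quasi-likelihood test in edgeR, Benjamini-Hochberg over 4701 regions). A normal 95% interval from the SE ran from 0.532 to 0.746 of WT. It takes no account of the few libraries and is narrower than the test itself would give. Both *Dhx9* KO libraries showed the direction. It was one of 23 regions with lower reads (0.489% of those tested), and 2 had higher reads. By log2 change, 57 of the 4701 regions were lower, and by p it ranked 16th. Of the 849 tested regions of 10 kb or longer, 4 had a lower log2 change. The call was lost without WT replicate 1 or without replicate 2, at log2 changes of -0.72 and -0.67. It was kept without *Dhx9* KO replicate 1 or without replicate 2, at -0.62 and -0.76. In each of these fits 1 group had a lone library, which is assumed to vary like the others. With all 4 libraries, the adjusted p in edgeR rose to 0.126 with equal library sizes and to 0.0822 without the length offset. It rose to 0.0878 when all 58214 regions called in the 4 libraries were tested. Each of these had a log2 change of -0.67 to -0.72.

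The change in reads moved with the level in WT. The 915 tested regions with 80 or more WT reads per kb had a median log2 change of -0.23, and the 3786 below had 0.04. *Nespas–Gnasxl*, with 109 WT reads per kb, was among the former, and its change of -0.67 was further from 0 than their median. The part of the WT level in the result was not tested. The other 2 regions of the window that could be tested did not pass. The upstream region (174225201 to 174247000), with 949 and 881 reads in WT and 1003 and 1028 in *Dhx9* KO, had a log2 change of 0.17 (SE 0.12, adjusted p = 0.671, edgeR). The region from 174262001 to 174266000, which lies next to the microRNA genes, had a log2 change of 0.35 (SE 0.17, adjusted p = 0.444, edgeR). Of the 15 WT stretches, 1 had no peak at the centre in either *Dhx9* KO library (174391001 to 174392400), compared with 11.1% of all stretches, and peaks of both libraries overlapped its end. Without the minimum of 80%, 10 regions of the window other than *Nespas–Gnasxl* could be tested, with log2 changes of -0.06 to 0.30 and none past the threshold (lowest adjusted p = 0.675, edgeR). With the estimated ChIP depth as library size the log2 change of the upstream region was -0.02.

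**Figure D4:**
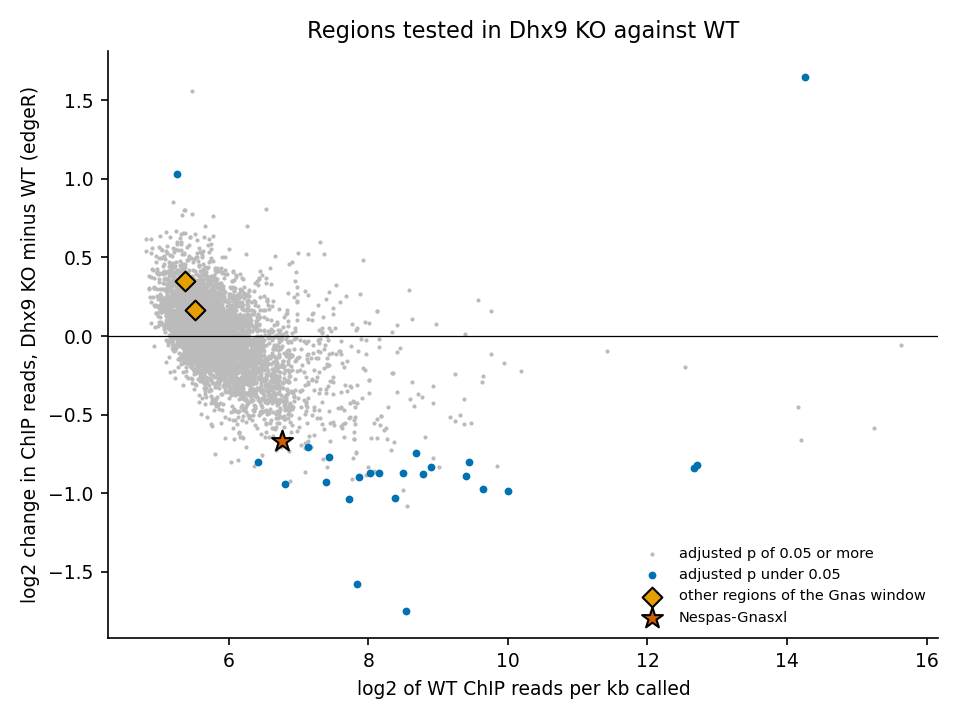
Log2 change in ChIP reads, *Dhx9* KO minus WT (y axis, edgeR), against the log2 of WT ChIP reads per kb called (x axis) for the 4701 regions tested, with the 25 that passed in blue. The *Nespas–Gnasxl* region (star) lies at -0.67 and the other 2 tested regions of the window (diamonds) at 0.17 and 0.35.

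The *Nespas–Gnasxl* stretch was set beside 15 other loci known to carry maternal DNA methylation. Several were named by the study on these libraries, so their loss is a description too. Both WT libraries shared a stretch within 5 kb of a start at 12 of the 15 and not at *Peg10*, *Mcts2* and *Slc38a4*. Where a locus had several, the stretch with the highest mean WT fold was taken. Of the 12 loci, 11 had no peak at the centre in either *Uhrf1* KO library. The exception was *Zrsr1*, which had a weak WT peak (0.95 and 0.43) and a peak in *Uhrf1* KO replicate 2. Its stretch held only 12 CpG, or 6.67 per kb. That of *Grb10*, which is among the 11, held 14 CpG, or 7.78 per kb. When a stretch had to lie over a start itself, 10 loci had one, and all 10 lacked a peak at its centre in both *Uhrf1* KO libraries. None of the 12 lacked a peak in both *Dhx9* KO libraries. The background shares for such losses are the 29.3% and 11.1% of all stretches given above.

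The *Peg3* stretch, at the control region of a paternally expressed zinc finger gene, spanned 7800 bp on chromosome 7 (6724601 to 6732400), with 806 and 690 ChIP reads in WT and log2 folds of 1.92 and 2.09, against 1.46 and 1.5 in *Dhx9* KO. The *Airn* stretch, at the start of the noncoding RNA that silences *Igf2r*, spanned 13600 bp on chromosome 17 (12736201 to 12749800), with 1527 and 1381 reads and folds of 2.38 and 2.42, against 1.72 and 2.18. The *Nnat* stretch, on the same chromosome as *Gnas* (157553201 to 157564600, 11400 bp), had 1025 and 968 reads and folds of 1.83 and 1.66, against 0.86 and 1.30. Each of these had no peak at its centre in either *Uhrf1* KO library, as *Nespas–Gnasxl* did. Each also had lower folds in both *Dhx9* KO libraries than in both WT libraries, again as *Nespas–Gnasxl* did. Only *Airn* had a higher mean WT fold than *Nespas–Gnasxl* (2.40 and 2.35), and only *Airn* and *Peg13* (22200 bp) had a longer stretch.

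Lower *Dhx9* KO folds were seen at most loci of the list. At 11 of the 12 loci all 4 WT and *Dhx9* KO libraries had a peak. At all 11 both *Dhx9* KO folds were below both WT folds, beside 38.3% of all stretches and 58.4% of the stronger ones. The stretches of the loci were picked by their highest WT fold, and those behind the 38.3% were not. The part of this choice was not tested. The median difference at these 11 loci was -0.66, beside -0.85 at *Nespas–Gnasxl*. *Zrsr1*, without a peak in *Dhx9* KO replicate 1, had 0.76 in replicate 2, between its WT folds. Only 3 of the 12 could be tested on reads. The *Snrpn* region fell by 0.94 on the log2 scale (SE 0.18, adjusted p = 0.0241, edgeR), and the regions of *Mest* (-0.32, SE 0.13, adjusted p = 0.336, edgeR) and *Inpp5f* (-0.47, SE 0.15, adjusted p = 0.206, edgeR) did not pass.

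**Figure D5:**
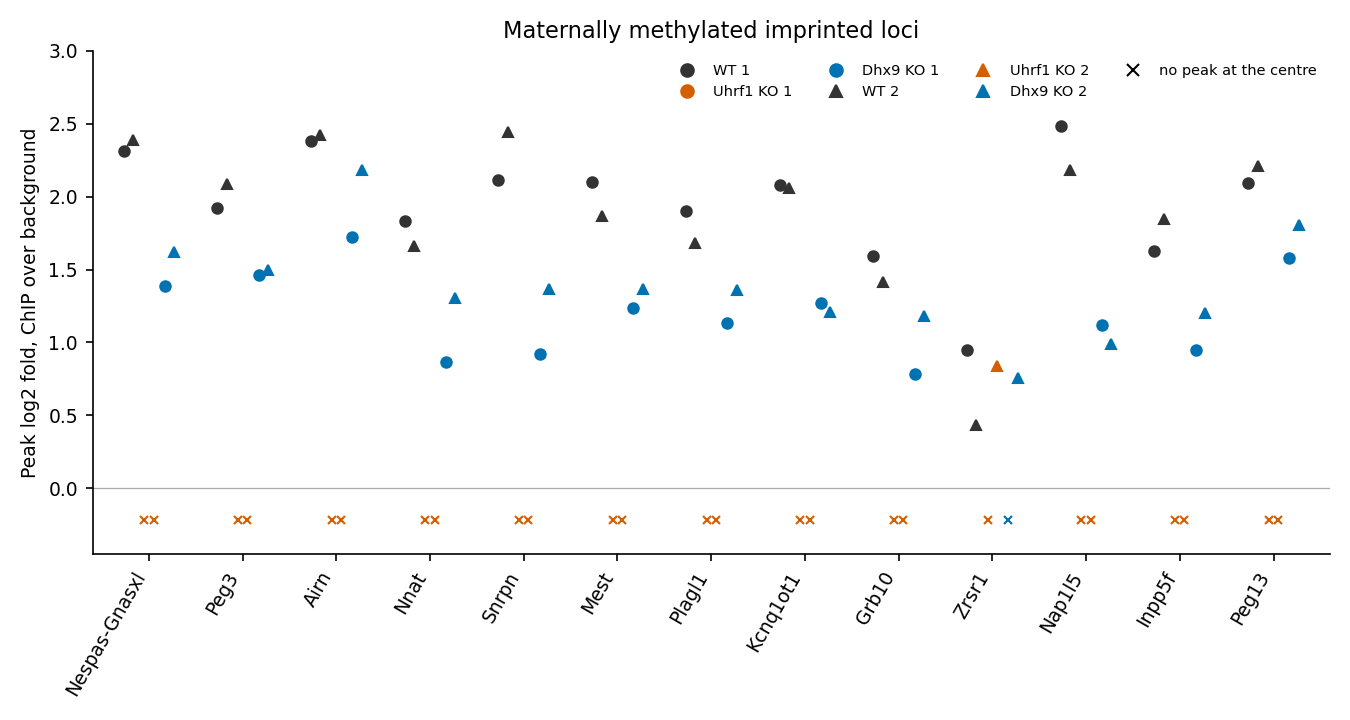
Log2 fold of ChIP over background (y axis) of the peak at the centre of the WT stretch of *Nespas–Gnasxl* and of 12 other maternally methylated loci (x axis), with replicate 1 as circles, replicate 2 as triangles and crosses below 0 where a library had no peak. The *Dhx9* KO points lie below the WT points at every locus but *Zrsr1*, and *Uhrf1* KO has a peak at *Zrsr1* alone.

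The hexamer was also searched in the stretches of these loci, which differ in length. Those of 10 of the 12 held between 3 matches (*Kcnq1ot1*) and 14 (*Mest*), *Peg3* having 8, *Airn* 9 and *Nnat* 9, and those of *Grb10* and *Zrsr1* held 0. *Nespas–Gnasxl* had 1.17 matches per kb, between *Peg13* (0.360) and *Snrpn* (3.85), compared with 0.132 per kb over all WT stretches together, of which 26.7% held a match. Its CpG density of 33.4 per kb was above those of all the others but *Nap1l5* (37.5), and all stretches together had 12.2 per kb.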

How the data were processed

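H3K9me3 ChIP-seq peak lists of 6 libraries were analysed. Per the labels and methods, the authors aligned reads to mm10 with Bowtie2 2.3.4.3, subsampled them and called peaks in each library in 200-bp bins with epic2 (listed as SICER 0.0.51), duplicates included. For every peak the authors deposited raw counts of ChIP reads and background reads. Their caller also gave a p-value, its false discovery rate, a log2 fold (ChIP over background, relative to library size) and a score, deposited as a rescaled log2 fold and not used. ChIP reads in peaks numbered 6703081 to 20875020 per library, total depth is not part of the lists, and precision covers counting error only.

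Positions are 1-based. The deposited annotation carries the reporter on chromosome 2, and its positions after the reporter were moved back by 2762 bp, while the peak lists needed no move. Stretches are intersections of WT replicate 1 and replicate 2 peaks of 600 bp or more, called lost if both knockout lists lacked a peak over the midpoint. Overlapping or touching peaks were merged into regions. Reads of regions called over at least 80% in each of 4 libraries were tested with edgeR 4.0.16 in R 4.3.3 (quasi-likelihood test, TMM, offset for called length, adjusted p under 0.05). DESeq2 1.42.0 was run beside it. The filter on low counts removed 0 regions. On simulated data for *Dhx9* KO against WT (4701 regions), 193 of 200 regions changed 2-fold were recovered beside 11 false calls. The change at *Nespas–Gnasxl*, to 0.630 of WT, is smaller than 2-fold, and recovery at that size was not simulated. Other steps used Python 3.11.15. Genes named were *Gnas*, *Nespas*, every gene annotated in the window and a list of 15 maternally methylated loci, with *Peg3*, *Airn* and *Nnat* in full; *Snrpn*, *Mest* and *Inpp5f* were named as those with a test, and others of the list after their values were seen. The members, lists and tests were chosen with earlier results of these data known. The alternatives using the estimated ChIP depth as library size and unjoined touching peaks, and the comparison of *Dhx9* KO peak folds, were chosen after seeing the data.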

Additional observations from a re-analysis of the deposited data

How the results depend on the processing

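No peak on the *Nespas–Gnasxl* stretch in *Uhrf1* KO, and one in *Dhx9* KO, held under every alternative run for it: peaks at a false discovery rate of 1e-10, peaks with a log2 fold of 1 or more, equally many peaks per list, other overlap rules and each library left out. The length under peaks in the window moved. In WT (66608 bp) it was 42036, 22082 and 39664 bp under these 3 filters in order, 20444 bp with no flank and 539244 bp with a 500 kb flank. In *Dhx9* KO (66408 bp) it was 47936, 19282, 38436, 21326 and 471844 bp in that order, and in *Uhrf1* KO (19982 bp) 8482, 10482, 11982, 2772 and 240272 bp. Stretches lost in *Uhrf1* KO (6 of 15) were 2 of 2 under the log2 fold filter, 3 of 5 with equally many peaks, 3 with a peak allowed within 5 kb, and 6 to 13 with 1 library left out (13 without *Uhrf1* KO replicate 2). Those lost in *Dhx9* KO (1) were 0 under these 3 and with any overlap, and 1 to 4 with 1 library left out (4 without *Dhx9* KO replicate 1). Of other imprinted loci, 0 to 1 were lost in *Dhx9* KO with 1 library left out. Window regions testable in *Uhrf1* KO (0) were 2 without the length minimum and 0 to 1 with 1 library left out. The 1 was the upstream region without *Uhrf1* KO replicate 1. Its log2 change was -0.30, and 27.1% of the regions tested in that fit had a lower one.

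The log2 change of *Nespas–Gnasxl* in *Dhx9* KO was negative throughout, at -0.76 to -0.62 with 1 library left out. Its adjusted p lost the threshold with equal library sizes (-0.67), no length offset (-0.67), every called region (-0.72) and with either WT library left out. The threshold was kept with either *Dhx9* KO library left out. The adjusted p was 0.00200 with DESeq2. It was 0.0316 in edgeR with the ChIP depth estimated from background reads as library size (-0.85, the median of all regions being -0.18). Lower and higher regions (23 and 2) were 27 and 1 with DESeq2 and 9 and 2 with equal sizes. They were 12 and 3 without the offset and 40 and 0 with the estimated ChIP depth. Over every called region they were 6 and 0, and at 50% coverage 71 and 8. In edgeR with all 6 libraries they were 0 and 0 (91 and 43 at an unadjusted p under 0.05, and no window region). These counts also moved with 1 library left out, where the lone library is assumed to vary like the others. Replicate numbers only name the samples (correlations of deviations -0.069 and 0.064). A replicate block gave -0.67 (adjusted p = 0.00335, edgeR), 64 and 16 regions, and 0 testable window regions in *Uhrf1* KO. Taking out the median difference of all stretches left 11 of 11 other imprinted loci with *Dhx9* KO folds below WT, against 19.2% of all stretches, and -0.68 at *Nespas–Gnasxl*. The stretches of these loci were still those picked by the highest WT fold. The causes were not tested.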
